A study of Mus musculus with 2 samples.

Results

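The Ly6/uPAR family comprises small proteins built on the three-finger fold, a compact domain held together by disulfide bonds between cysteines and first known from snake toxins. Most members are tethered to the outer cell membrane by a glycosylphosphatidylinositol (GPI) anchor, while a few, such as Slurp1, are secreted. Stratified epithelia are a main site of the family: some members act on nicotinic acetylcholine receptors, some mark keratinocyte differentiation, and others are interferon-induced surface antigens of blood cells. The 8 genes described here were Psca, Ly6g6c, Lypd2, Lypd3, Slurp1, Ly6d, Ly6a and Ly6e, of 31053 genes in the table and of 47 family genes looked for. The members were chosen by their UMI counts across libraries, corneal keratin shares and proliferation RNA, so those values are given as a description with no test.

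The cells were corneal epithelial cells of CycB1-GFP mice, a reporter strain of the Cyclin B1 gene, sorted live as GFP-positive after DAPI staining and profiled with 10x Genomics 3' v3 chemistry. The labels name the tissue, the epithelium and the genotype, and give a single group with 2 replicates. All cells came from the same genotype and the same GFP-positive gate, so no unsorted or GFP-negative cells serve as a control. Age, number and background strain of the mice are not stated in the labels. The series asks how stem cell fate is regulated in the ocular epithelium.

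Library 1 kept 3187 cells with a median of 5571 UMIs (molecular barcodes that let each captured RNA be counted once) and library 2 kept 3001 cells with a median of 5886, and 5 barcode sequences occurred in both. Each library is 1 sample, and which library is which labelled replicate is not given. Nothing states that the replicates came from separate animals, so spread between them may be technical. All 8 epithelial markers were detected, at 26230 and 27201 CPM in sum (UMIs per 1000000 UMIs of the cells summed), while the keratocyte markers Kera, Col1a1, Col1a2 and Col3a1 and the goblet cell mucin Muc5ac were at 0 in both libraries.

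Of the 8 genes, 6 lie together on chromosome 15 between 74714839 and 74998031 (GRCm38, GENCODE M21), a stretch of 283193 bp with 17 protein-coding genes, 12 of them in the family. Their order is Psca, Slurp1, Lypd2, Ly6d, Ly6e and Ly6a. Ly6g6c lies on chromosome 17 at 35065388 to 35070050, and Lypd3 on chromosome 7 at 24636550 to 24641118. Slurp1 overlaps Them6, Ly6g6c overlaps Mpig6b and Lypd3 overlaps the antisense gene Gm26550, each on the opposite strand, and whether the counting used strand is not stated.

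What makes these genes a family is visible in their coding sequences. Each of the 8 reading frames held exactly 1 run of 8 codons for a pair of cysteines, 4 further residues, a cysteine and an asparagine, the signature that closes the domain. The runs are shown from the GENCODE M21 transcripts, 5′ to 3′, with the 3 cysteine codons in capitals. The 8 genes share these cysteines and the closing asparagine (aat or aac, in lower case). None of the 4 codons between is common to all 8, though some recur in several genes.
Psca: TGCTGCtactctgacctgTGCaat
Slurp1: TGTTGCttccgtgacctcTGCaac
Lypd2: TGCTGCaattctgacctaTGCaac
Ly6d: TGCTGCcagactgacctaTGCaac
Ly6a: TGTTGCcaggaagacctcTGCaat
Ly6e: TGCTGCcaaagctccttcTGCaac
Ly6g6c: TGCTGTgacaaggataacTGTaac
Lypd3: TGCTGTcagggcccccgcTGTaac

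The reading frames had between 110 and 136 codons in 7 of the genes and 363 in Lypd3. Near-identical copies can blur counts in this family. Over the last 500 bases of the transcripts, where 3' reads fall, Ly6a shared 20 of its 451 runs of 50 bases (4.43%) with I830127L07Rik and Ly6c2, and the other 7 genes shared none with another gene.

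The RefSeq promoter table (GRCm38.p6) matched 2 of the 8 genes, Lypd3 and Ly6g6c, both of which stood higher in the cells rich in surface differentiation RNA in both libraries (values further on). The 250 bases before each start are shown on the plus strand, with motif matches in capitals. The RefSeq starts of both genes lie inside their GENCODE genes. The Ly6g6c window lies within the gene throughout, and the Lypd3 window does from base 24636550 on.
Lypd3, chr7:24636320-24636569: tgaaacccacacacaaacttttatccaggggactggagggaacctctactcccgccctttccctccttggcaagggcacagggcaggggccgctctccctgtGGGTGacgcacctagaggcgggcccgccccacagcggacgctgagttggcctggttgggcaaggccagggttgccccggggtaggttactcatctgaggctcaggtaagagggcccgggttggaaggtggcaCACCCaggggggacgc
Ly6g6c, chr17:35067075-35067324: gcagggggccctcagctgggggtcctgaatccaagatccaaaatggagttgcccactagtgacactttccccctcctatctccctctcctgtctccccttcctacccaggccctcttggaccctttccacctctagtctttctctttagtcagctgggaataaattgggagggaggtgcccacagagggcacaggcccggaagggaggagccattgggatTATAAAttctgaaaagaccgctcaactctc
Lypd3 held CACCC, the core of Krüppel-like factor motifs, 2 times over both strands, from bases -148 and -16, and 52.0% of 32851 promoters of the same length held it at least once. Ly6g6c held the TATA box TATAAA from base -30, as did 12.4% of promoters anywhere in the window, on either strand. Neither held TGANTCA (AP-1; 6.75% of promoters) or AACCNGTT (grainyhead-like; 1.79%), which says only that these letters are not in the window.

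The genes differed widely in abundance. The 3' chemistry counts 1 tag per molecule whatever the length, so CPM levels can be set side by side. In libraries 1 and 2, Lypd2 was the most abundant at 1521 and 2631 CPM, followed by Slurp1, the secreted member, at 723 and 782 CPM. Ly6e stood at 498 and 625 CPM and Ly6a at 509 and 503 CPM, close enough that their order turned between the libraries. Lypd3, also known as C4.4A and a surface protein of the upper layers of squamous epithelium, stood at 205 and 212 CPM.

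The rare members were the ones that differed between the libraries. Psca, the prostate stem cell antigen, had 11.4 CPM in library 1 (exact 95% Poisson interval 9.92 to 13.03) and 85.8 CPM in library 2 (81.6 to 90.2). Ly6g6c, a gene of the major histocompatibility complex region, had 6.82 CPM (5.69 to 8.11) and 21.6 CPM (19.5 to 23.9). Ly6d, a keratinocyte surface antigen also used as an early B lineage marker, went the other way, with 29.9 CPM (27.5 to 32.5) and 8.09 CPM (6.82 to 9.53). These 3 were the members 2-fold or more apart, and 6.61% of 12487 genes with 20 or more UMIs were as far apart. The intervals cover counting error only. All 8 genes together made up 0.350% of the UMIs of library 1 and 0.487% of library 2.

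The same 3 genes were held by very few cells. In library 1, a single cell carried 119 of the 214 Psca UMIs (55.6%); in library 2, 8 cells carried 50% of the 1527. The richest 1% of cells held 100% and 98.2% of the Psca UMIs, 67.2% and 78.7% of the Ly6g6c UMIs, and 68.0% and 55.6% of the Ly6d UMIs. For the other 5 genes the richest 1% held between 5.15% and 14.1%. Without the cell richest in Psca in each library, Psca stood at 5.06 and 80.0 CPM.

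**Figure D1:**
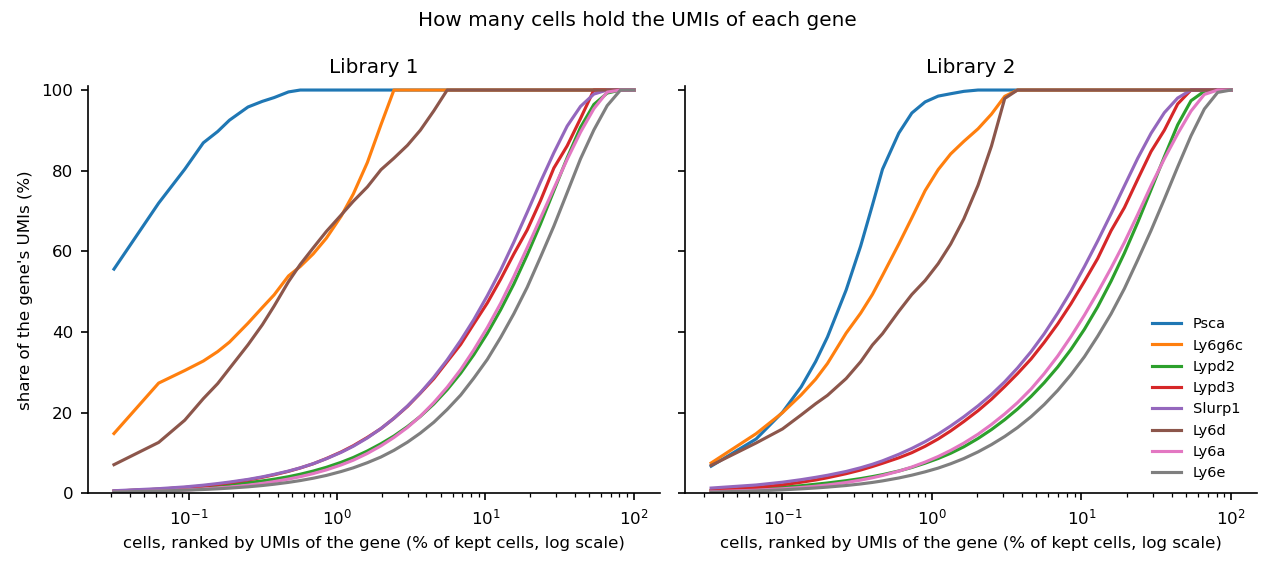
Cumulative share of each gene's UMIs (y, percent) held by the cells ranked by that gene (x, percent of kept cells, log scale), for library 1 and library 2. The lines of Psca, Ly6g6c and Ly6d lie far to the left: the richest 1% of cells hold 100% and 98.2% of Psca, while they hold 5.15% and 5.96% of Ly6e.

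The cells with 5 or more Psca UMIs, 7 in library 1 and 29 in library 2, had a median of 9487 and 5117 UMIs, against 5571 and 5881 in the cells without Psca. Doublets were not removed, and their part among these cells was not tested. No Mki67 or Top2a UMI, the RNA of 2 proliferation genes, was found in 85.7% and 72.4% of them, against 5.80% and 6.96% of cells without Psca. Lypd2 stood at 7968 and 11951 CPM in them, Slurp1 at 2767 and 4384 CPM and Ly6g6c at 682 and 1094 CPM, all above the cells without Psca, where Lypd2 had 1499 and 2483 CPM, Slurp1 716 and 723 CPM and Ly6g6c 4.72 and 5.35 CPM. Ly6d had 0 UMIs in them, which allows up to 55.3 and 14.8 CPM, and stood at 30.3 and 49.2 CPM in the cells with 1 to 4 Psca UMIs. Muc4, a membrane mucin of the ocular surface, stood at 1531 and 1788 CPM against 11.6 and 24.8 CPM, and Krt13, a keratin of conjunctiva and other mucosal epithelia, at 8706 and 2700 CPM against 110 and 162 CPM. The cell richest in Psca had 195 Krt13 UMIs in library 1 and 0 in library 2, so Krt13 was not common to all of them. Cldn4, Upk1b and Elf3 were also higher in both libraries. Krt4 was higher in library 1 (572 against 81.3 CPM) and lower in library 2 (88.7 against 172 CPM). Sbsn and Dmkn were higher in library 1 only. Krtdap was at 0 CPM in the Psca-rich cells, against 12.9 and 1.67 CPM, levels too low for so few cells to show. These cells were picked for Psca, so no test applies.

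Ly6g6c was often detected where Psca was. Among cells with a Krt12 share above 0.8 (defined below) thinned to 2000 UMIs, 32 of 1622 cells of library 2 had a Psca UMI, and Ly6g6c was detected in 65.6% of those and in 0.755% of the others. In library 1, 4 of 2039 cells had Psca, and 2 of them had Ly6g6c, against 0.786% of the others. Seen from Ly6g6c, 21 of 33 cells of library 2 and 2 of 18 cells of library 1 had Psca, so most Ly6g6c cells of library 1 had none.

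Krt12 is the keratin of the corneal epithelium and Krt15 a keratin of limbal and conjunctival basal cells, so the Krt12/(Krt12+Krt15) UMI share orders cells from the limbal and conjunctival side to the corneal side. Cells with at least 5 such UMIs fell into shares under 0.4 (663 and 959 cells), 0.4 to 0.8 (161 and 164) and above 0.8 (2304 and 1821). By this order the family split into a corneal pair, Lypd2 and Slurp1, and a pair higher on the Krt15 side, Ly6e and Ly6a.

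Lypd2 stood at 43.2, 411 and 2015 CPM in the 3 classes of library 1 and at 70.5, 1218 and 3898 CPM in library 2. The highest class exceeded the lowest 46.6-fold and 55.3-fold. Slurp1 stood at 15.2, 107 and 967 CPM in library 1 and at 17.1, 255 and 1173 CPM in library 2, which is 63.4-fold and 68.6-fold. For both genes the classes kept the same order in both libraries. As a background, 19 cells with immune RNA and almost no keratin RNA, with a median of 1932 UMIs, had Lypd2 at 293 CPM (exact 95% Poisson interval 156 to 500) and 2 UMIs of Slurp1 (5.45 to 163 CPM). At 2000 UMIs per cell, Lypd2 was found in 7.17% and 8.84% of the cells under 0.4 and in 86.5% and 98.1% of those above 0.8, against 62.5% of 8 immune cells (exact 95% binomial interval 24.5 to 91.5%). In the lowest class Lypd2 lay below the immune cells' level and Slurp1 within their interval, so neither is read as expression there. Where the immune cells' Lypd2 comes from was not tested.

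Ly6e, an interferon-induced member known for restricting virus entry, ran the other way, at 834, 719 and 388 CPM in library 1 and 1108, 784 and 395 CPM in library 2, a 2.15-fold and 2.81-fold higher level in the lowest class. Ly6a, known as Sca-1 and used to sort blood stem cells, stood at 625, 701 and 462 CPM and at 822, 659 and 348 CPM. Its highest class was the middle one in library 1 and the lowest one in library 2. The immune cells had 1170 CPM of Ly6e and 855 CPM of Ly6a, and the sum of the 8 immune markers was 1.94 and 48.3 CPM in the cells under 0.4. The part of immune RNA in these levels was not tested.

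Lypd3 stood at 152, 210 and 219 CPM and at 112, 171 and 260 CPM, a 1.44-fold and 2.33-fold higher level in the corneal class. Ly6d ran from 25.2 to 48.2 and 29.9 CPM and from 4.77 to 3.54 and 10.05 CPM, with no common order. Psca had 5.82 and 12.9 CPM in the lowest and highest class of library 1 and 13.9 and 125 CPM in library 2. Without the cell richest in Psca, the highest class of library 1 had 4.26 CPM, so the direction in library 1 rests on that cell. Ly6g6c had 5.82 and 6.86 CPM in library 1 and 6.56 and 29.7 CPM in library 2.

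Psca, Lypd2, Slurp1 and Ly6e were 2-fold or more apart in the same direction in both libraries, beside 12.4% of 12367 genes (6.87% higher and 5.54% lower in the cells under 0.4). Without the cell richest in Psca, 3 members were. Next to the limits of the classes, Lypd2 had 173 and 206 CPM just under and just above 0.4 and 387 and 1115 CPM around 0.8 in library 1. In library 2 the values were 1287 and 502 CPM around 0.4 and 1687 and 1625 CPM around 0.8, in groups of 11 to 55 cells across both libraries. Conjunctival marker RNA was also higher in the lowest class, at 1220 and 2337 CPM in sum against 115 and 115 CPM in the highest. Its part in the levels was not tested.

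**Figure D2:**
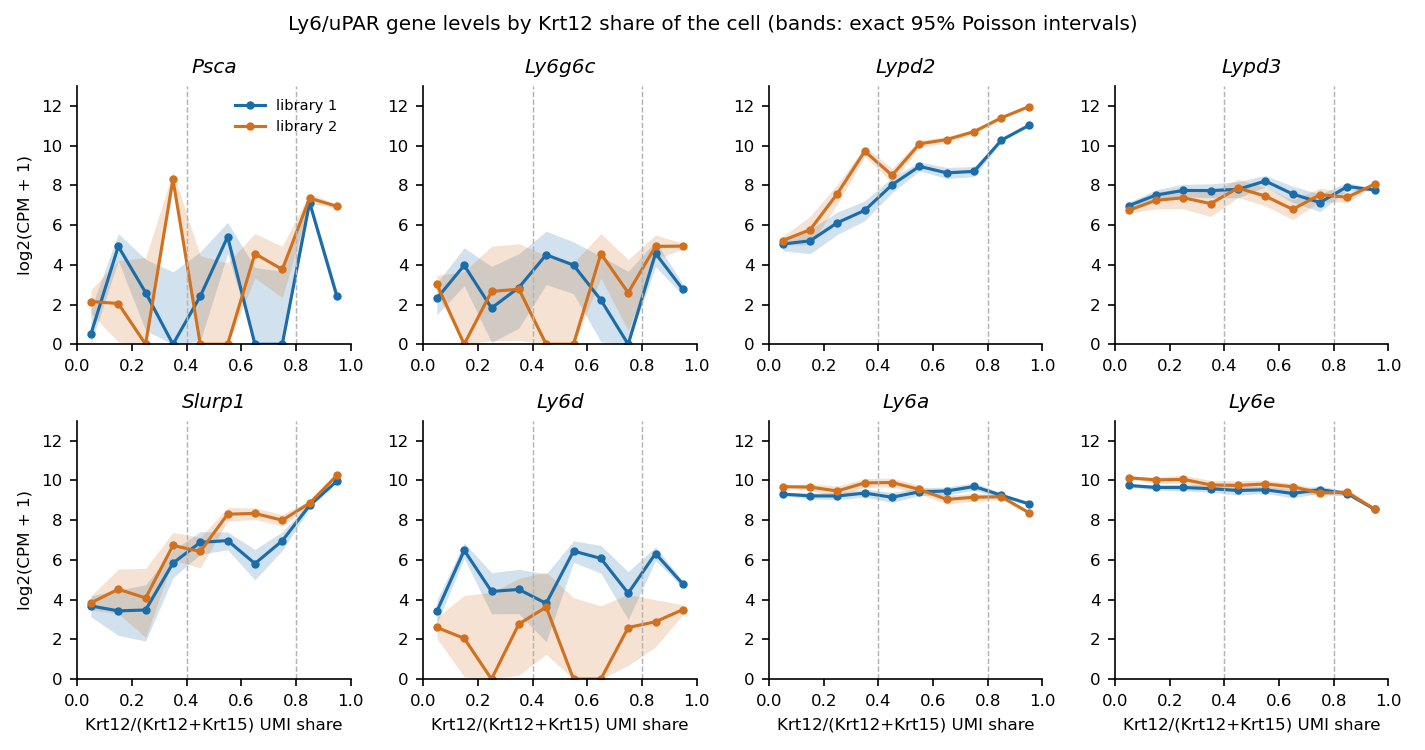
Level of each gene, as log2(CPM + 1), in cells binned by Krt12/(Krt12+Krt15) UMI share (x, 10 equal bins; dashed lines at 0.4 and 0.8), for library 1 (blue) and library 2 (orange), with bands of exact 95% Poisson intervals. Lypd2 climbs from 32.0 CPM in the first bin to 2064 in the last in library 1 and from 36.3 to 3980 in library 2, while Ly6e falls off from 859 to 372 and from 1124 to 374.

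The family was also described by proliferation RNA. Cells with 0 and with 5 or more Mki67+Top2a UMIs were drawn in equal number at matched total UMIs, 193 of each in library 1 and 203 in library 2. Each member stood higher in the cells without this RNA in both libraries, though Ly6e in library 1 only by a margin that turned (502 against 501 CPM) without the cell richest in Psca. The share of all genes that did so was not counted, so the common direction is a description only. Over 7476 genes the median log2 difference, cells with this RNA against those without, was -0.01. Lypd2 had 2444 against 1311 CPM in library 1 and 4445 against 1868 CPM in library 2, Slurp1 1363 against 674 and 1879 against 522 CPM, and Lypd3 391 against 159 and 390 against 105 CPM. Ly6a had 500 against 336 and 680 against 580 CPM, and Ly6e, where the gap was narrowest, 514 against 502 and 815 against 695 CPM.

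Psca had 202 UMIs against 0 in library 1 and 1176 against 1 in library 2. The UMIs of the cells without this RNA lay in 4.66% and 12.3% of those cells. Ly6g6c had 67.5 against 7.10 CPM and 301 against 0 CPM. Ly6d had 192 against 4.26 CPM in library 1 and 12.3 against 6.33 CPM in library 2. Without the cell richest in Psca, Psca stood at 121 and 1323 CPM in the cells without proliferation RNA.

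Psca, Ly6g6c, Lypd3 and Slurp1 were 2-fold or more apart in both libraries, beside 9.67% of 9070 genes (3.73% lower and 5.94% higher in the cells with this RNA). Slurp1 dropped out without the cell richest in Psca, at 1283 against 674 CPM in library 1. The 2 kinds of cells differed in more than proliferation: conjunctival markers stood at 1967 and 3738 CPM in the cells without this RNA and at 246 and 757 CPM in those with it. Among cells with a Krt12 share above 0.8 alone, 138 of each kind in library 1 and 100 in library 2, Lypd2 had 3282 against 1954 and 8057 against 3498 CPM, and Slurp1 1882 against 1076 and 3469 against 897 CPM. The part of conjunctival RNA in the gap was not tested beyond this.

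**Figure D3:**
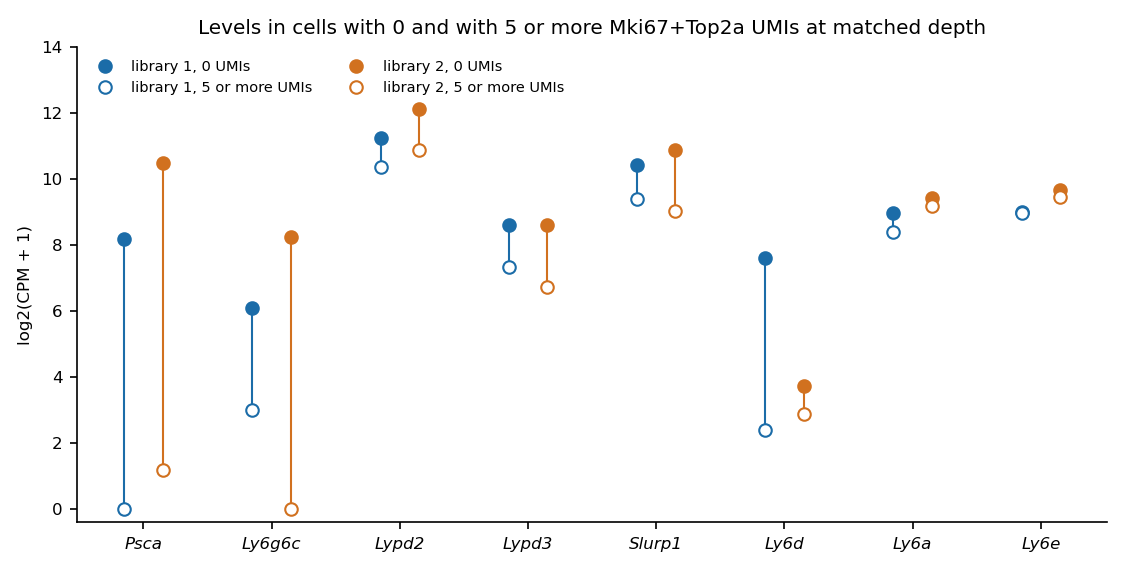
Level of each gene, as log2(CPM + 1), in cells with 0 (filled) and with 5 or more (open) Mki67+Top2a UMIs at matched depth, for library 1 (blue) and library 2 (orange). The filled points lie above the open ones for all 8 genes, by far the most for Psca, with 290 and 1441 CPM against 0 and 1.27.

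Further splits of the cells, which the rule for choosing the genes had not used, were tested with edgeR's quasi-likelihood test. The test used UMI sums per library and group, with library as a block and Benjamini-Hochberg adjustment over all genes. Members and lists were chosen with earlier results of these data known, so the tests are not independent of the data. The phase split also overlaps with proliferation RNA, which that rule did use. Each fit had 4 sums and 1 residual degree of freedom, so the spread is largely borrowed across genes and the p-values are less certain than their size. A gene whose counts reached the low-count limit in 1 group only could enter a fit only by differing, so such a gene is given by its UMIs with no p and is not counted. Splits are made from RNA of the same cells, and "rose" and "fell" below mean past an adjusted p of 0.05 in that fit.

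The first split divided the Krt15 side by keratin. Among cells with a Krt12 share under 0.4, it compared 85 and 146 cells in which the conjunctival keratins Krt4 and Krt13 made up over 0.8 of the Krt4, Krt13 and Gpha2 UMIs with 170 and 316 cells in which they made up under 0.2. Gpha2 is a limbal marker, and the groups are called Krt4/Krt13-rich and Gpha2-rich here, because the limbal marker list as a whole was higher in the former, at 13915 and 19131 CPM against 8097 and 10437 CPM. Conjunctival markers, which include Krt4 and Krt13, stood at 4073 and 7120 CPM against 333 and 734 CPM, and immune markers at 0 in library 1 and at 7.35 against 71.7 CPM in library 2. The part of these in the results was not tested. In this split 25.9% of 8009 genes were called (13.6% higher, 12.4% lower), and 23.3% of the 7431 that reached the limit in both groups. Of the 5 members that did, 3 rose in the Krt4/Krt13-rich cells and none fell, with a median log2 difference of 0.84 against -0.02 over those genes.

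Lypd3 stood at 382 against 49.2 CPM in library 1 and 310 against 26.6 CPM in library 2. It rose by 3.31 on the log2 scale (SE 0.158; edgeR adjusted p = 3.61e-42), and both Krt4/Krt13-rich groups lay above both Gpha2-rich groups. Lypd2, Slurp1 and Ly6a below did so too, and the share of all genes that did was not counted.

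Ly6a had 944 against 467 and 946 against 761 CPM, and rose by 0.68 (SE 0.111; edgeR adjusted p = 2.35e-05). Lypd2 had 69.2 against 28.6 and 142 against 52.5 CPM and rose by 1.44 (SE 0.198; edgeR adjusted p = 5.68e-10), but all these levels lie below the immune cell background given above. Slurp1, at 16.5 against 9.15 and 20.99 against 12.4 CPM, and Ly6e, at 944 against 811 and 1173 against 1094 CPM, did not pass (edgeR adjusted p = 0.131 and 0.0599).

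The rare members give no test here. Psca had 21 UMIs against 0 in library 1 and 67 against 1 in library 2, and the UMIs of the Krt4/Krt13-rich groups lay in 3.53% and 2.74% of their cells. Ly6g6c had 12 UMIs against 2 and 23 against 0. Both reached the low-count limit in the Krt4/Krt13-rich groups alone. Ly6d did not pass the filter, at 110 against 4.58 CPM in library 1 and 4.20 against 4.32 CPM in library 2.

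Without the library block, Lypd3 passed and Lypd2 and Ly6a did not (edgeR adjusted p = 0.0778 and 0.0732). The Krt4/Krt13-rich groups had fewer cells with 5 or more Mki67+Top2a UMIs, 70.6% and 63.7% against 79.4% and 76.3%. Among cells with 5 or more such UMIs, Psca had 0 and 1 UMIs in the Krt4/Krt13-rich groups and 0 and 1 in the Gpha2-rich ones, and Lypd3 stood at 386 against 51.4 and 268 against 25.9 CPM (3.16; edgeR adjusted p = 6.68e-11). Psca and Ly6g6c could not be tested there.

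The second split was by surface differentiation. Within the cells above 0.8, a list of 16 genes of the outer layers, such as Krtdap, Tgm1, Cldn4, Muc4 and Elf3, was summed at 2000 UMIs per cell. Cells at or above the 90th percentile of each library (248 and 197 cells) were compared with the cells at or below its median (1081 and 982 cells). In this split 16.5% of 10591 genes were called (10.4% higher, 6.12% lower), and 15.8% of the 10310 that reached the limit in both groups. Of the 6 members that did, 4 rose and none fell, with a median of 1.07 against -0.01 over those genes.

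Lypd3 stood at 407 against 155 CPM and 544 against 171 CPM, and rose by 1.61 on the log2 scale (SE 0.108; edgeR adjusted p = 2.59e-07). Slurp1 had 1368 against 769 and 2299 against 952 CPM and rose by 1.13 (SE 0.116; edgeR adjusted p = 1.46e-05), and Lypd2 had 3146 against 1613 and 6312 against 3374 CPM and rose by 1.02 (SE 0.0913; edgeR adjusted p = 4.42e-06). Within each library, all 3 genes were higher in the top group, though Lypd2 in the low group of library 2 lay above the top group of library 1.

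Of the rare members, Ly6d rose by 2.05 (90.3 against 21.1 and 15.9 against 5.08 CPM; edgeR adjusted p = 5.41e-06). Psca and Ly6g6c reached the low-count limit in the top groups alone. Psca had 165 UMIs against 2 in library 1 and 1422 against 8 in library 2, or 98.7 against 0.279 and 902 against 1.23 CPM, held by 2.82% and 17.3% of the cells of the top groups. The cell richest in Psca in library 1 was among them, and without it the top group had 27.7 CPM. Ly6g6c had 64 UMIs against 10 and 326 against 5.

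Ly6a, at 375 against 539 and 363 against 368 CPM, and Ly6e, at 364 against 430 and 436 against 405 CPM, did not pass (edgeR adjusted p = 0.335 and 0.950). With all cells carrying a Psca UMI left out, the 4 members that rose passed again, Lypd2 at 2954 against 1613 and 5190 against 3374 CPM and Slurp1 at 1309.8 against 769.7 and 1829 against 949.9 CPM. Without the library block, Lypd3 alone passed. Conjunctival markers moved with the split, at 567 and 538 CPM in the top groups and 48.5 and 40.5 CPM in the low ones, and 68.1% and 64.0% of the top groups had 5 or more Mki67+Top2a UMIs against 80.0% and 86.5%. Within the cells with 5 or more such UMIs, the 4 passed again, with Lypd3 at 381 against 147 and 451 against 168 CPM, and Psca had 3 UMIs against 2 and 217 against 7. Ly6a fell there by 0.37 (353 against 535 and 315 against 362 CPM; edgeR adjusted p = 0.00372).

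The third split was by alarmin and wound keratin RNA (12 genes, such as Krt16, Krt6a, S100a8 and Sprr1b), which stressed or wounded surface epithelium makes. Cells at or above the 90th percentile (215 and 171) were compared with the cells at or below the median (1111 and 1017). In this split 7.62% of 10549 genes were called (5.03% higher, 2.59% lower), and 6.80% of the 10224 that reached the limit in both groups. Of the 7 members that did, 4 rose and none fell, with a median of 1.47 against -0.01 over those genes.

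Ly6d, Ly6a and Lypd3 rose with alarmin RNA. Ly6d had 181 against 3.46 CPM in library 1 and 48.5 against 2.70 CPM in library 2, and rose by 5.15 on the log2 scale (SE 0.357; edgeR adjusted p = 3.39e-05). Ly6a had 687 against 269 and 688 against 265 CPM and rose by 1.47 (SE 0.184; edgeR adjusted p = 0.000704). Lypd3 had 466 against 158 and 647 against 166 CPM and rose by 1.87 (SE 0.201; edgeR adjusted p = 0.000263). For these 3 genes both top groups lay above both low groups, as they did for Psca, Ly6e and Ly6g6c below. The share of all genes that did so was not counted.

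Psca had 165 UMIs against 2 and 1426 against 7 and reached the low-count limit in the top groups alone, at 94.4 against 0.315 and 1047 against 1.05 CPM, with 26.5 CPM in the top group of library 1 without its richest cell. Ly6e, at 480 against 299 and 501 against 362 CPM, was just past the threshold (0.68; edgeR adjusted p = 0.0472) and missed it under 7 of 10 alternatives. Ly6g6c, at 28.0 against 3.30 and 231 against 0.899 CPM, did not pass (5.59; edgeR adjusted p = 0.179), though it did under 5 of 10 alternatives.

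The corneal pair behaved differently from the rest in this split. Lypd2 had 1341 against 2773 CPM in library 1 and 5593 against 3675 CPM in library 2, and Slurp1 551 against 1257 CPM and 1994 against 1083 CPM. Both were lower in the top group of library 1 and higher in that of library 2, and neither passed (edgeR adjusted p = 0.931 and 0.982). The difference between the libraries has no replicate and was not tested. Within the cells with 5 or more Mki67+Top2a UMIs both fell, Lypd2 by 0.55 and Slurp1 by 0.52 (edgeR adjusted p = 0.00698 and 0.0305), although library 2 lay in the other direction, with Lypd2 at 4216 against 3655 CPM there and at 1004 against 2730 CPM in library 1. The top groups were deeper (median 8103 and 7058 UMIs against 5484 and 6430), carried more conjunctival marker RNA (551 and 610 CPM against 24.1 and 40.3), more limbal marker RNA (1888 and 1546 CPM against 1124 and 872) and fewer cells with 5 or more Mki67+Top2a UMIs (60.5% and 58.5% against 81.6% and 86.7%). The part of these in the result was not tested. Without the library block Ly6d, Lypd3 and Ly6a passed.

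The fourth split was by interferon response (28 genes such as Ifit1, Isg15 and Rsad2). Ly6a and Ly6e are known interferon-induced genes, so this split bears on them. Cells at or above the 90th percentile (235 and 179) were compared with the cells at or below the median (1534 and 902). No member passed edgeR's test at an adjusted p of 0.05. At an unadjusted p under 0.05 the number was 7 of 8, beside 914 of 10462 genes. DESeq2 called 1 member, beside 81 genes higher and 0 lower of 16447. Few genes were called in this split at all, 58 of 10462 (0.554%, all of them higher in the top group).

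Ly6a stood at 413 against 484 CPM in library 1 and 870 against 243 CPM in library 2, so the libraries went opposite ways (edgeR adjusted p = 0.887). Ly6e had 409 against 392 and 624 against 361 CPM (edgeR adjusted p = 0.570). Lypd3 had 276 against 209 and 420 against 197 CPM (edgeR adjusted p = 0.223), and Psca 113 against 0.387 and 701 against 34.97 CPM (edgeR adjusted p = 0.551), though Psca passed under 6 of 10 alternatives. Ly6d, the member with the smallest unadjusted p, had 57.4 against 28.1 and 27.4 against 5.75 CPM (edgeR adjusted p = 0.138). With the score taken at 3000 UMIs, 3 members passed, beside 226 genes higher and 21 lower of 10636. They were Psca, Lypd2 at 2351 against 1914 and 4760.3 against 3682 CPM, and Slurp1 at 1069 against 892 and 1527 against 1082 CPM. Conjunctival markers moved with this split too, at 304 and 330 CPM in the top groups and 80.0 and 63.9 CPM in the low ones, and so did limbal markers, at 1666 and 1637 CPM against 1424 and 813 CPM. Their part was not tested.

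The last split was by cell cycle phase, taken as the S share of S and G2/M UMIs in cells above 0.8. Cells at or above its 75th percentile (490 and 386) were compared with cells at or below its 25th (489 and 384). Of 8 members, 4 rose in S phase and none fell, with a median of 0.22, beside 24.1% of 10114 genes called (13.9% higher, 10.1% lower) and a median of 0.00 over all of them. Ly6a had 493 against 328 and 396 against 338 CPM and rose by 0.50 (SE 0.0915; edgeR adjusted p = 8.19e-07). Ly6d had 47.4 against 16.3 and 11.8 against 8.59 CPM and rose by 1.33 (SE 0.224; edgeR adjusted p = 6.85e-08). Both were higher in S phase in both libraries, unlike the other members that rose, Slurp1 and Psca.

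Slurp1 had 960 against 1018 and 1224 against 921 CPM (0.25; edgeR adjusted p = 0.00652), and Psca 1 UMI against 4 in library 1 and 127 against 31 in library 2 (1.97; edgeR adjusted p = 3.87e-10). In both cases library 1 lay in the other direction. With the score at 3000 UMIs, Psca had 0 against 8 and 8 against 24 UMIs and could not be tested, and Ly6g6c fell by 1.25 (13 against 32 and 10 against 30 UMIs; edgeR adjusted p = 0.00409). Lypd2, Lypd3, Ly6e and Ly6g6c did not pass (edgeR adjusted p = 0.263, 0.465, 0.126 and 0.997). Without the library block no member passed, and DESeq2 called Ly6a alone. Cells with 5 or more Mki67+Top2a UMIs made up 55.3% and 68.9% of the S groups and 91.6% and 92.4% of the G2/M groups, and their part in the result was not tested.

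**Figure D4:**
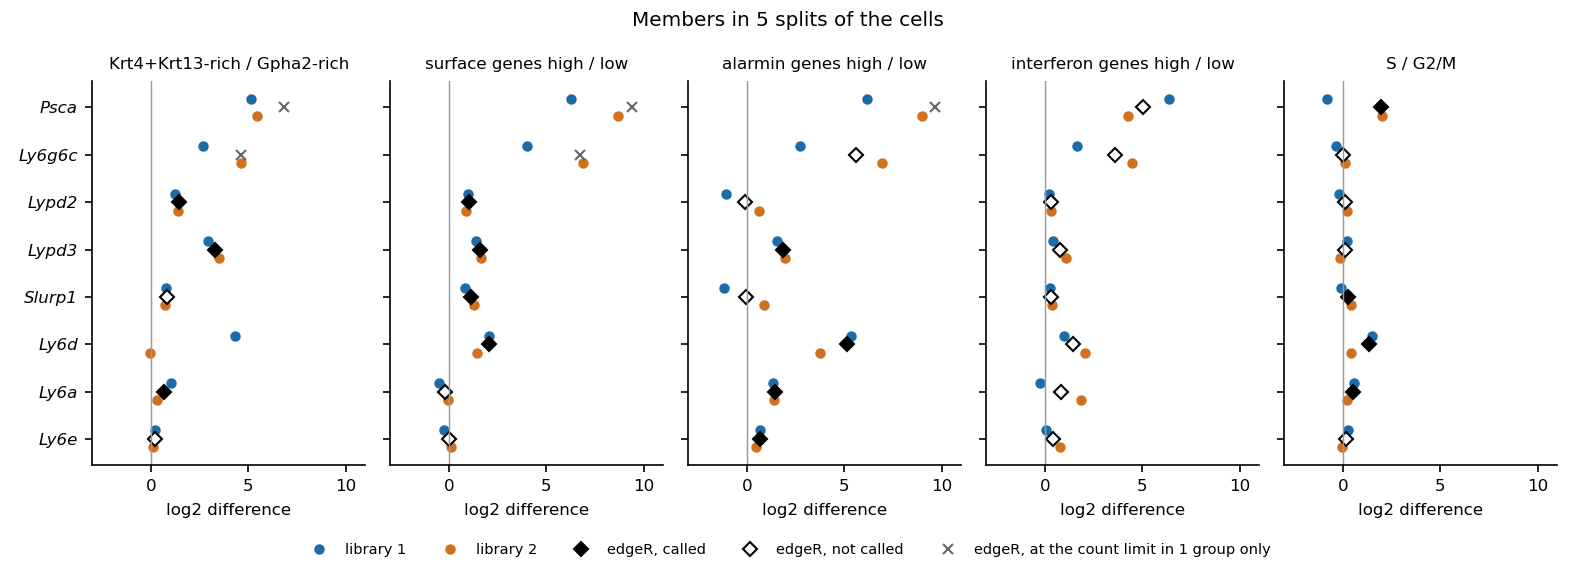
Log2 difference of each member in the 5 splits: log2 of the ratio of CPM + 1 in library 1 (blue) and library 2 (orange), and the edgeR estimate (diamonds, filled where the adjusted p is under 0.05; crosses where the gene reached the low-count limit in 1 group only). Lypd3 lies to the right of 0 in both libraries in the first 4 splits; Lypd2 and Slurp1 fall on both sides of 0 in the alarmin split, and Ly6a does in the interferon split.

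Few of the remaining family genes were abundant. Of 39 further family genes looked for, 34 were in the table, 18 had a UMI, and 2, Ly6c1 and Lynx1, reached 20 CPM in either library. By Krt12 share, under 0.4 against above 0.8, 8 entered the fit, where 29.5% of 11678 genes were called (15.3% higher, 14.2% lower), and 27.2% of the 11144 that reached the limit in both groups. Of the 6 that did, 2 fell, 1 rose and 3 did not pass, with a median of -0.09 against -0.02 over those genes.

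Lynx1, a GPI-anchored modulator of nicotinic receptors whose gene lies in the chromosome 15 stretch between Lypd2 and Ly6d, had 2.77 against 36.5 CPM in library 1 and 2.98 against 57.6 CPM in library 2. It fell by 4.08 on the log2 scale in the Krt15 side (SE 0.215; edgeR adjusted p = 4.18e-10). Lypd6, an enhancer of Wnt signalling, had 4 UMIs against 119 and 2 against 122, and Pinlyp, a predicted phospholipase inhibitor, 29 against 8 and 28 against 13, each at the limit in 1 group only. Lypd6b fell by 1.99 (edgeR adjusted p = 4.41e-05). Ly6g6e, a neighbour of Ly6g6c, rose by 1.66 (edgeR adjusted p = 0.000338), which was lost without the library block (edgeR adjusted p = 0.128).

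In the matched proliferation draw, 3 further family genes could be tested beside 10.9% of 7476 genes called (5.03% higher, 5.86% lower; 8.98% of the 6873 at the limit in both groups), and Lynx1 fell by 1.66 in the cells with 5 or more Mki67+Top2a UMIs (SE 0.285; edgeR adjusted p = 0.0141; DESeq2 called none). Ly6g6e reached the limit in 1 group only in the Krt4/Krt13, surface, alarmin and interferon splits. It had 19 UMIs against 1 and 48 against 2 in the Krt4/Krt13-rich cells, and 14 against 3 and 39 against 4 with surface RNA. With alarmin RNA it had 10 against 3 and 35 against 5, and with interferon RNA 4 against 13 and 17 against 12. Lynx1 rose by 0.73 with surface RNA (edgeR adjusted p = 0.00289), and Ly6c1, an antigen of monocytes and endothelium, fell by 1.22 there (edgeR adjusted p = 0.00117). With alarmin RNA Lypd6 fell by 2.61 (edgeR adjusted p = 0.0135), and Plaur, the urokinase receptor that names the family, had 5 UMIs against 6 and 12 against 3. Cd59a, a complement inhibitor, rose by 1.02 in S phase and Ly6c1 by 0.87 (edgeR adjusted p = 0.000836 and 0.000188). Cd59a had 4 UMIs against 22 and 5 against 41 in the Krt4/Krt13-rich cells, at the limit in the Gpha2-rich ones only.

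Partners of the family were examined as well. Of 16 nicotinic receptor subunit genes, 7 had a UMI and none reached 20 CPM. Chrnb1, the beta subunit of the muscle receptor, was the one that entered a fit, each time at the limit in the top groups only. It had 5 UMIs against 3 and 10 against 1 with surface RNA, and 5 against 5 and 6 against 4 with alarmin RNA. All 5 subunits of the transamidase that attaches GPI anchors were detected. By Krt12 share, Pigt fell by 0.49 and Pigu rose by 0.54 in the cells under 0.4 (edgeR adjusted p = 0.00355 and 0.0234), and in the other 6 comparisons none of the 5 passed.

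Patterns were compared over 16 sums of cells, made by library, Krt12 class and proliferation RNA, on log2(CPM + 1) with each library centred. The sums of a library share that library, and Krt12 and proliferation chose the genes, so the correlations are descriptions. Ly6a and Ly6e ran together (Pearson's r = 0.91), as did Lypd2 and Slurp1 (0.90) and Psca and Ly6g6c (0.88), while Ly6e ran against Lypd2 (-0.92) and Slurp1 (-0.91). Of 5807 genes, those most like Lypd2 were Gyg and Krt12 (both 0.98). Those most like Ly6e were Krt15 (0.98) and Tmem176a (0.97). Krt12 and Krt15 define the classes of the sums, so their places here follow in part from how the sums were made. Slurp1 was nearest to Rgs10 and Paqr5 (both 0.95), Psca to Ppl and Cysrt1 (both 0.93), and Lypd3 to Sfn and Actn4 (both 0.93). Ly6g6c was nearest to Arpc2 (0.92) and Mal (0.90), Ly6a to Mbnl2 (0.95) and Id1 (0.92), and Ly6d to Nub1 (0.90) and Rhbdf1 (0.89).

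**Figure D5:**
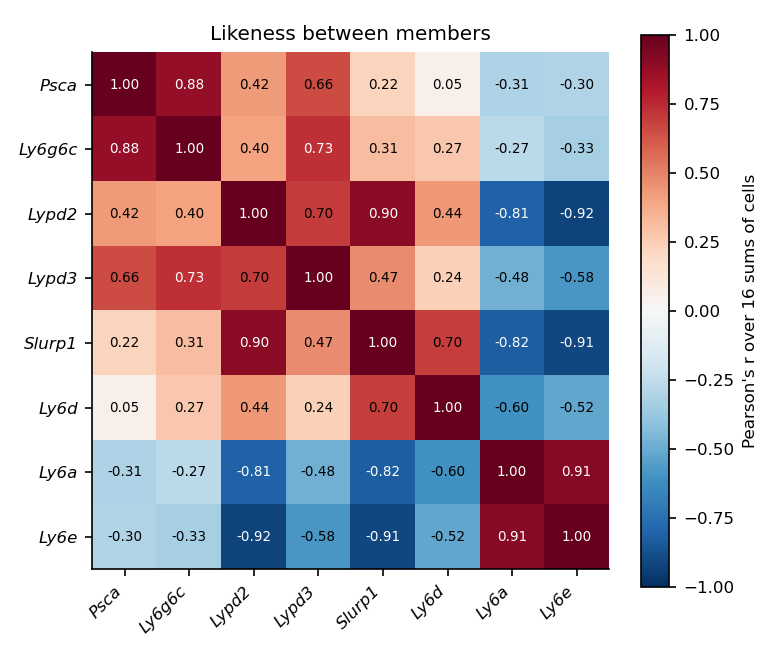
Pearson's r between the members over 16 sums of cells (colour and number; red positive, blue negative). Pairs with high values are Ly6a and Ly6e (0.91), Lypd2 and Slurp1 (0.90) and Psca and Ly6g6c (0.88), and Ly6e lies opposite to Lypd2 (-0.92).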

How the data were processed

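The deposited matrix holds UMI counts per gene and barcode, made with Cell Ranger 3.1.0; Seurat 5.0.0 and the build GRCm38 (mm10) are also named, per the submitters' processing notes. Barcodes ended in 1 of 2 numbers, taken as the libraries. Of 6752 barcodes, 6188 had at least 500 genes and less than 20% mitochondrial UMIs and were used; 18773893 and 17796678 UMIs stand behind the libraries. Scrublet (scanpy 1.11.5) did not separate doublets here, so none were removed; leaving out the 3% with the highest scores was an alternative. UMIs were summed per library and cell group and tested with edgeR 4.0.16 in R 4.3.3 (quasi-likelihood, robust, TMM, filterByExpr, library as a block), with adjusted p under 0.05 as the threshold and positive differences meaning higher in the first-named group. Genes reaching the count limit of filterByExpr in 1 group only were left out of the counts of members and further family genes, a rule added after seeing the data. DESeq2 1.42.0 was an alternative. In simulated counts, 200 genes were given a log2 difference of 1, of which the fits recovered 32.0% (alarmin split) to 80.0% (Krt12 share). Members and lists were chosen with earlier results of these data known. Named were all 8 members, further family genes at 20 CPM or past the threshold, receptor and transamidase genes past the threshold, and the 2 most similar genes per member. Intervals are exact and cover counting error only.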

Additional observations from a re-analysis of the deposited data

How the results depend on the processing

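Every test rests on 2 libraries and 1 residual degree of freedom, rare members on few cells, and all groups on RNA of the cells tested. Psca had between 0 and 8 UMIs in the low groups of the Krt4/Krt13, surface and alarmin splits, so ratios against those groups are uncertain. The replicate block is the library, since both groups of a library come from the same preparation. Members at the low-count limit in 1 group only are left out of the counts without the replicate block. Without it Lypd3 alone passed for Krt4/Krt13-rich against Gpha2-rich cells (3 members with it), beside 555 genes higher and 346 lower of 8009. For surface RNA it was again Lypd3 alone (4 with the block), beside 279 higher and 55 lower of 10591. For alarmin RNA 3 passed (4 with the block), beside 154 higher and 29 lower of 10549. For S phase 0 passed (4 with the block), beside 404 higher and 280 lower of 10114. Lypd2 and Slurp1 turned to 0.21 and 0.22 with alarmin RNA without the block. With DESeq2 the number of members past the threshold was 1 for S phase, beside 268 genes higher and 207 lower of 15635. For interferon RNA it was 1 with DESeq2, beside 81 higher and 0 lower of 16447. Of other family genes by proliferation RNA, DESeq2 called 0, beside 171 higher and 165 lower of 14319. With no low-count filter 2 of them passed, beside 587 higher and 707 lower of 14319. For interferon RNA, where edgeR called 0 members, the number was 5 with no low-count filter, beside 256 genes higher and 39 lower of 16447. It was 3 in all kept cells (97 higher and 28 lower of 11356 genes) and 3 with the score at 3000 UMIs (226 and 21 of 10636). With fixed limits it was 1 (177 and 3 of 10453). Alternatives chosen after seeing the data follow, with the genes higher and lower of all tested in brackets. Among cells with 5 or more Mki67+Top2a UMIs they gave 1 for interferon RNA (47 and 1 of 10221) and 3 for Krt4/Krt13-rich cells (698 and 584 of 7314). Without cells carrying Psca they gave 2 for interferon RNA (130 and 20 of 10480) and 3 for alarmin RNA (418 and 183 of 10536). Without the cell richest in Psca the number was 1 for interferon RNA (42 and 0 of 10454). Differences that changed sign were small in most cases. Ly6e with surface RNA was -0.094 in cells with 5 or more Mki67+Top2a UMIs, -0.047 without cells carrying Psca, -0.024 with no low-count filter, -0.0043 with DESeq2 and -0.048 with the score at 3000 UMIs. Ly6a with surface RNA was 0.14 in all kept cells, and Ly6d with interferon RNA was -0.15 at 3000 UMIs. In S phase, Ly6g6c was -0.062 in all kept cells, -0.0025 with no low-count filter, -0.060 with DESeq2 and -1.25 at 3000 UMIs, Ly6e was -0.13 in all kept cells, and without library 2 Psca was -0.80 and Slurp1 -0.084. The causes were not tested. Of the other counts, some of which take in genes at the low-count limit in 1 group only, 53 stayed within 1.5 times.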

Other observations

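Cells with fewer than 5 Krt12 and Krt15 UMIs belonged to no class. There were 59 in library 1 and 57 in library 2, with a median of 1573 and 1331 UMIs. Ly6e stood at 766 and 1093 CPM in them and Ly6a at 574 and 649 CPM, Lypd2 at 147 and 888 CPM, Slurp1 at 103 and 79.7 CPM and Lypd3 at 110 and 57.0 CPM. No UMI of Psca or Ly6d was found in them.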
